A study of Mus musculus with 3 samples.

Results

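In CD4 T cells activated for 72 h, 15 of 41 genes for the folding and translocation machinery of the endoplasmic reticulum (ER) fell in dialyzed medium relative to complete medium, and 14 fell in dialyzed medium with methionine, also relative to complete medium. Of all rows tested, 9.07% and 8.36% were called lower in these comparisons. None of the 41 was called between the dialyzed media, where 0.0392% of all rows were called higher and 0.0157% lower. Herpud1 alone rose, in both comparisons against complete medium, where 7.80% and 6.92% of all rows were called higher. The genes described here are 41 ER chaperone and unfolded protein response genes, taken by symbol from the 23282 rows of the deposited files. The rule that picked them used gene symbols alone, but the list was chosen with earlier results of these data known. All 41 were found, and all 41 were among the 12770 rows with enough reads to be tested.

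CD4 T cells came from the spleen and lymph node of C57BL/6 mice, and every culture received anti-CD3 and anti-CD28 antibodies. Complete medium (CM) was RPMI-1640 with fetal bovine serum. The dialyzed medium (DM) was RPMI without amino acids plus dialyzed serum, and DM+Met was the same medium with 30 µM methionine. CM and DM therefore differed in all medium amino acids and in the serum, and these cannot be told apart here. DM and DM+Met differed in the amount of methionine alone, since the paper reports that DM still held some. Each medium was represented by 2 libraries, called CM 1 and CM 2, DM 1 and DM 2, and DM+Met 1 and DM+Met 2. The paper's captions describe 2 biologically independent samples, without saying what made them independent. No label says whether they came from separate cultures or mice. The p-values measure the spread between these libraries, which may be technical if they did not.

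The ER folds proteins that enter the secretory pathway, with BiP, GRP94, the lectin chaperones and the disulfide isomerases as its main helpers. When unfolded proteins accumulate, the sensors IRE1, ATF6 and PERK start the unfolded protein response, in which IRE1 splices Xbp1 mRNA and the resulting factor, with ATF6, raises transcription of chaperones and of ER-associated degradation (ERAD) genes. Activated lymphocytes enlarge this machinery when they begin to secrete. The sequencing reads came from 3′ ends, so spliced and unspliced Xbp1 mRNA cannot be told apart and all Xbp1 values below are total mRNA.

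Many of these genes are known for an ER stress response element (ERSE) in their promoter, the sequence CCAAT, 9 bases of any kind, then CCACG, which binds ATF6 with the factor NF-Y. RefSeq promoters (GRCm38.p6, 250 bases before to 50 bases after each annotated start) were at hand for 34 of the 41 genes, with 37 promoters in all. The promoters of Atf6, Hyou1, Manf, Derl1, Sec61a1, Spcs3 and Ostc were not used here. On either strand, the full ERSE was present in 9 of the 37 promoters, against 0.119% of all 32851 promoters. A shorter relative, ERSE-II (ATTGGNCCACG), stood in 2 promoters, those of Herpud1 and Dnajb11, against 0.0365% of all promoters. The core of the UPRE (TGACGTG), a further element, stood in those of Hspa5 and Sec24d, against 2.01% of all promoters. A match describes the letters in the window and does not show binding. The 10 ERSE matches and the Herpud1 ERSE-II are given here because they include BiP, a chaperone gene that fell, and Herpud1, the gene that rose. Each runs 5′ to 3′ in the direction of the element with 8 bases on each side, capitals mark the letters that define the element, and coordinates are those of the element.
Hspa5, chr2:34772025-34772043: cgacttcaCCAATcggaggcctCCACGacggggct
Dnajc3, chr14:118937827-118937845: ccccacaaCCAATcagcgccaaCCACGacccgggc
Hsp90b1, distal, chr10:86705638-86705656: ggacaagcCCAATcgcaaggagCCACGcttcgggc
Hsp90b1, proximal, chr10:86705533-86705551: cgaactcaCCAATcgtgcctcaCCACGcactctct
Creld2, chr15:88819520-88819538: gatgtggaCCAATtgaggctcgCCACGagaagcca
Calr, chr8:84847075-84847093: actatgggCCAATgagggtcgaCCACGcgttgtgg
Canx, chr11:50325800-50325818: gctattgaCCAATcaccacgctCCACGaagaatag
Pdia6, chr12:17266491-17266509: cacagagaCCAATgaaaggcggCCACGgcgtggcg
Syvn1, chr19:6046532-6046550: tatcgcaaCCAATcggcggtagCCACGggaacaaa
Derl3, chr10:75893242-75893260: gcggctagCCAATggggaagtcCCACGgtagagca
Herpud1 (ERSE-II), chr8:94386377-94386387: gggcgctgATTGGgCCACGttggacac

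Longer stretches are shown for Hspa5, the BiP gene, as an example of the ERSE and for Herpud1 as an example of the ERSE-II. The 190 bases before the start of Hspa5 (chr2:34771900-34772089, plus strand) follow, with the ERSE letters in capitals: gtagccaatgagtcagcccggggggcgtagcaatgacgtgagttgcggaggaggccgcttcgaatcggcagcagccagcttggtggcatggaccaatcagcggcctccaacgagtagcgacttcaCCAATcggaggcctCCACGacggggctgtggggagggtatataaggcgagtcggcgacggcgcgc. The element ends 47 bases before the start, and the UPRE core lies 157 to 151 bases before it. The same stretch of Herpud1 (chr8:94386239-94386428, plus strand) carries the ERSE-II letters in capitals, 52 to 42 bases before the start: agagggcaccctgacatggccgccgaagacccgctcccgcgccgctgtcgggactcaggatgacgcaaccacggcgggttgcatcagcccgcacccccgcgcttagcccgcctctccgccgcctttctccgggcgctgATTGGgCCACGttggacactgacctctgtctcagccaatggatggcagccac.

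Depth was 8504742 to 12377285 reads per library. The CM and DM+Met pairs correlated at r = 0.938 and 0.973 across tested rows, the DM pair at 0.919, and DM 2 correlated with the DM+Met libraries at 0.947 and 0.940. The ribosomal RNA precursor row Rn45s took 31.0% to 38.3% of reads in CM and DM and 15.5% to 20.1% in DM+Met. The 6 CD4 T cell markers were present throughout and summed to 1231 to 1480 CPM, with Cd4 at 7.35 to 8.13 on the log2 scale. Of these 6, Cd3g rose (0.72 ± 0.20, adjusted p = 0.0349) and Cd28 fell (-0.53 ± 0.16, adjusted p = 0.0490) in DM against CM, and none was called in DM+Met. Of the 9 B and plasma cell markers Pax5 was at 0 in every library, and their sum was 214 and 178 CPM in CM and 68.9 to 103 in the dialyzed media. The sum of 6 CD8 T and NK cell markers was 119 and 129 CPM in CM and 33.6 to 56.7 elsewhere, and the sum of 7 myeloid markers was 9.09 and 12.0 CPM in CM and 16.6 to 35.6 elsewhere. The 10 proliferation genes summed to 1905 and 1841 CPM in CM, 379 and 410 in DM, then 335 and 358 in DM+Met. The part of other cell types and of proliferation in the results below was not tested. In bulk RNA, fewer cells of a type and less RNA per cell cannot be told apart.

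The first question was how the ER genes differed between DM and CM. Of the 41 genes, 15 fell and 1 rose at an adjusted p below 0.05, against 9.07% of all tested rows called lower and 7.80% called higher. The difference was below 0 for 31 of the 41, with a median of -0.60 on the log2 scale, where the median of all tested rows was 0.07. Both DM libraries lay below both CM libraries for 24 genes and above them for 5, where 26.2% and 27.9% of all rows did so. Scaling to library totals without Rn45s gave 13 lower and 3 higher calls in place of 15 and 1, with the calls of Calr and Pdia4 lost. Leaving out CM 1 reduced the 16 calls to 6, and leaving out CM 2, DM 1, DM+Met 1 or DM+Met 2 reduced them to 10.

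The second question was how DM+Met differed from CM, a comparison that uses the same CM libraries. Here 14 genes fell and 1 rose, against 8.36% of all rows called lower and 6.92% called higher. The median over the 41 genes was -0.40, and that of all rows was 0.06. Both DM+Met libraries lay below both CM libraries for 24 genes and above them for 8, with 28.7% and 32.2% of all rows as background. When values were scaled to library totals, which moved the median of all rows to 0.41 and that of the 41 genes to -0.03, the calls were 11 lower and 5 higher. That scaling moved the DM+Met differences of 5 called genes by over 1.5 times, to -0.26 for Xbp1, -0.36 for Canx and -0.49 for Rpn2, whose calls were lost, and to -0.64 for both Hspa5 and Sec61a1. Without CM 1, CM 2, DM+Met 1 or DM+Met 2 the count of 15 became 6, 9, 4 and 4.

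The third question was whether added methionine changed these genes within dialyzed medium. By limma none of the 41 was called between DM+Met and DM, and none was by limma-voom, while 3 (Sec61a1, Spcs3 and Ostc) had an unadjusted p below 0.05. Across all 12770 tested rows, 1238 had an unadjusted limma p below 0.05, while 0.0392% were called higher and 0.0157% lower. The differences of the 41 genes ranged from -1.12 (Sec24d) to 1.46 (Edem3) with a median of 0.14, and that of all rows was 0.01. The DM+Met libraries lay above both DM libraries for 12 genes and below them for 9, where 20.4% and 20.6% of all rows did so. The median standard error over all rows was 0.44 on the log2 scale, and those of the 41 genes ran from 0.14 to 0.73.

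**Figure D1:**
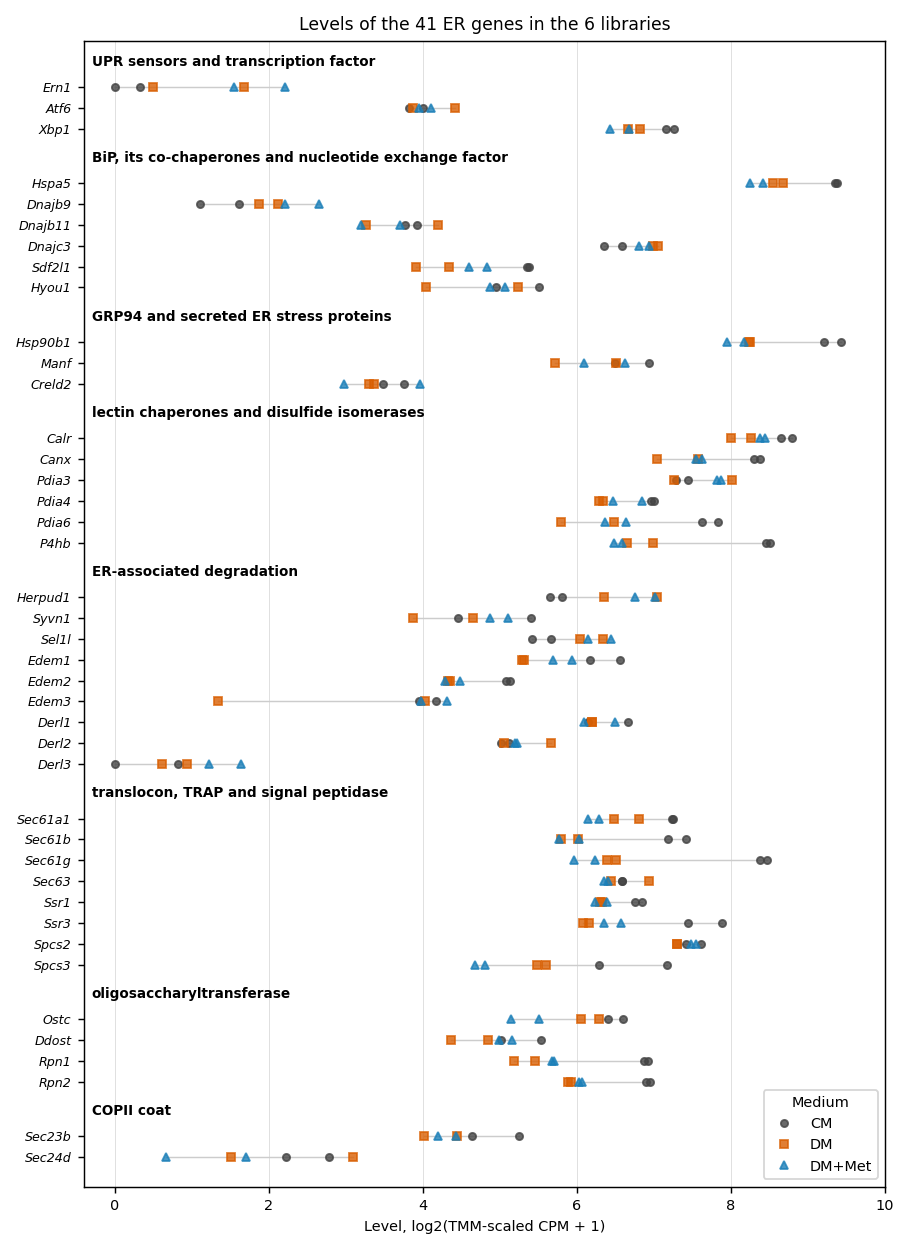
Level of each of the 41 ER genes, as log2(TMM-scaled CPM + 1) on the horizontal axis, in the 2 libraries of each medium (one marker per library, grey lines span the 6 values). For 21 genes all 4 dialyzed libraries lie left of both CM libraries, and for 5 (Ern1, Dnajb9, Dnajc3, Herpud1 and Sel1l) they lie right of both. The share of all rows that does so in both media at once is not given here. For DM alone, 26.2% of all rows lie below both CM libraries and 27.9% above, and for DM+Met alone 28.7% and 32.2%.

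Combining both comparisons against CM, 11 genes fell in each of DM and DM+Met. These were Hspa5, Hsp90b1, Canx, Pdia6, P4hb, Sec61b, Sec61g, Ssr3, Spcs3, Rpn1 and Rpn2. Both comparisons used the same CM libraries, so their calls are not independent. The share of all rows called in both is not given here. In the single comparisons, 9.07% of all rows were called lower in DM and 8.36% in DM+Met. Sdf2l1, Calr, Pdia4 and Edem1 passed the test in DM alone, and Xbp1, Sec61a1 and Ostc in DM+Met alone, but none of these 7 was called between DM and DM+Met. Herpud1 was the 1 gene that rose, and it did so in both. The remaining 22 genes passed in neither. Summed over all 41 genes, the level was 5668 and 5292 CPM in CM, 3350 and 3203 in DM, with 3320 and 3308 in DM+Met, which put the dialyzed libraries at 58.5% to 61.1% of the CM mean.

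The sensors and the transcription factor stand first in the pathway. Levels from here on are log2(TMM-scaled CPM + 1), each library in turn, and differences are between mean levels on that scale. Total Xbp1, the mRNA of the factor that IRE1 activates by splicing, was at 7.26 and 7.15 in CM, 6.66 and 6.82 in DM, then 6.42 and 6.68 in DM+Met. All 4 dialyzed libraries were lower than CM. The difference was -0.46 ± 0.18 (SE) in DM, which did not pass the test (adjusted p = 0.110), and -0.65 ± 0.18 in DM+Met, where Xbp1 fell (adjusted p = 0.0392). That call was lost without any 1 of the 6 libraries, with the difference between -0.78 and -0.53. The call was kept in 5 of the 11 other alternatives, where the difference ran from -0.66 to -0.26.

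Ern1, which encodes IRE1 itself, gave 0 and 2 reads in CM, 4 and 25 in DM, with 23 and 43 in DM+Met. The CM libraries were the lowest. From these reads, scaled for depth, Ern1 was 11.4 times higher in DM (95% exact conditional interval 2.88 to 98.4) and 23.0 times higher in DM+Met (6.11 to 194), where intervals cover counting error only. On the log2 scale its difference was 0.92 ± 0.62 in DM (adjusted p = 0.339) and 1.71 ± 0.62 in DM+Met (adjusted p = 0.0936), and neither passed. The DM value was 0.33 without DM 2 and 1.52 without DM 1. Of the alternatives that tested it, library totals alone made Ern1 pass in DM+Met. That scaling moved the median of all rows in this comparison to 0.41. Atf6, the other membrane-bound sensor here, was at 3.817 and 3.999 in CM, 4.41 and 3.87 in DM, then 3.95 and 4.10 in DM+Met. Its media overlapped, with differences from CM of 0.23 ± 0.38 and 0.11 ± 0.38.

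Of BiP and the 5 proteins listed with it, 2 fell in DM and 1 in DM+Met, and none rose. Hspa5 (chr2:34772090-34776529), which encodes BiP, the Hsp70 chaperone of the ER and the standard marker of its load, was at 9.38 and 9.35 in CM, 8.54 and 8.67 in DM, with 8.42 and 8.24 in DM+Met. The media formed 3 separate steps with CM highest. Hspa5 fell 1.69-fold in DM (-0.76 ± 0.14, adjusted p = 0.00675) and 2.05-fold in DM+Met (-1.03 ± 0.14, adjusted p = 0.00129). In DM the call was lost without CM 1, CM 2 or DM 1, and in DM+Met without DM+Met 2, while the difference stayed between -0.82 and -0.69 in DM and between -1.12 and -0.95 in DM+Met.

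Sdf2l1, an ER luminal partner of the J-domain proteins, was at 5.38 and 5.36 in CM, 3.91 and 4.33 in DM, then 4.83 and 4.60 in DM+Met. DM lay lowest and DM+Met between it and CM. It fell 2.37-fold in DM (-1.24 ± 0.30, adjusted p = 0.0227), a call kept in 1 of the 6 fits that left out a library, the one without DM 2. In DM+Met its difference from CM was -0.65 ± 0.30 (adjusted p = 0.182) and its difference from DM 0.59 ± 0.30 (adjusted p = 0.582).

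The J-domain co-chaperones, which pass clients to BiP, were called in neither medium. Dnajc3 was at 6.58 and 6.35 in CM, 6.99 and 7.05 in DM, with 6.81 and 6.94 in DM+Met. Its dialyzed libraries were all above CM, at 0.56 ± 0.18 in DM (adjusted p = 0.0615) and 0.41 ± 0.18 in DM+Met (adjusted p = 0.159). Dnajb9, a co-chaperone that also restrains IRE1, was low, at 1.61 and 1.11 in CM, 1.87 and 2.12 in DM, then 2.65 and 2.21 in DM+Met. Its libraries were likewise all above CM, by 0.64 ± 0.56 and 1.07 ± 0.56. Dnajb11 and the nucleotide exchange factor Hyou1 overlapped between DM and CM, with differences of -0.12 ± 0.47 and -0.59 ± 0.40. In DM+Met these were -0.40 ± 0.47 and -0.26 ± 0.40.

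**Figure D2:**
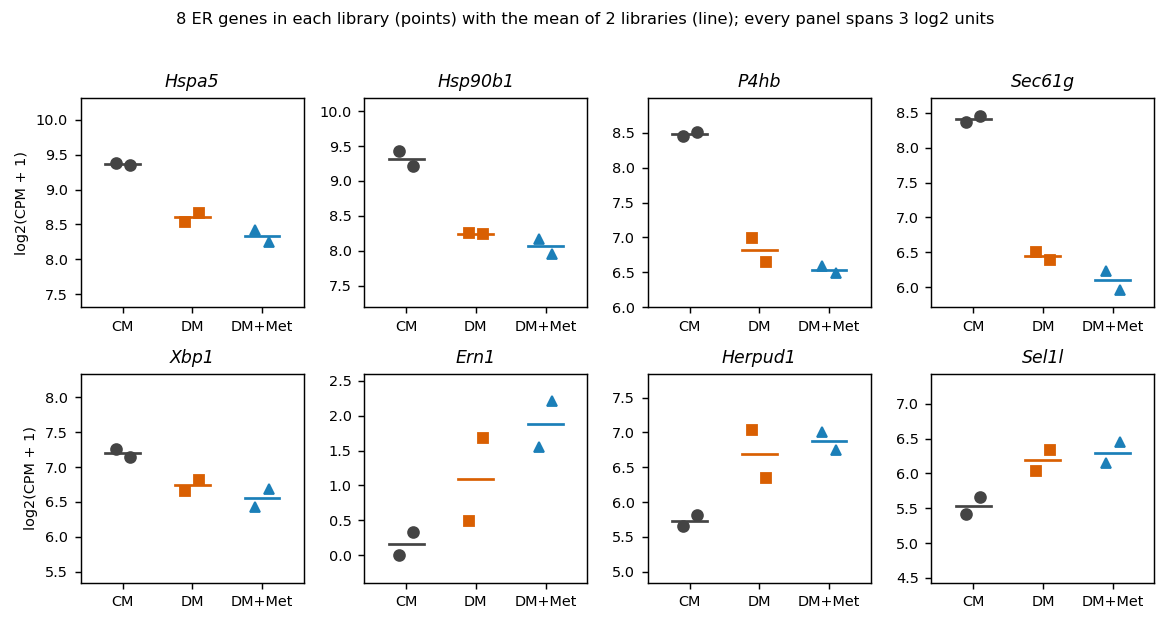
Level on the log2(CPM + 1) scale of 8 ER genes in CM, DM and DM+Met, one point per library and a line at the mean of the 2 libraries, with every panel spanning 3 log2 units. Hspa5, Hsp90b1, P4hb and Sec61g are highest in CM, and Ern1, Herpud1 and Sel1l are lowest there.

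Hsp90b1 (chr10:86690841-86705444) encodes GRP94, the Hsp90 chaperone of the ER, needed for integrins and Toll-like receptors. Its level was 9.42 and 9.21 in CM, 8.25 and 8.23 in DM, with 8.17 and 7.95 in DM+Met. Every dialyzed library was lower than CM by more than the CM pair differed. It fell 2.11-fold in DM (-1.07 ± 0.15, adjusted p = 0.00196) and 2.39-fold in DM+Met (-1.26 ± 0.15, adjusted p = 6.63e-04). The DM+Met call held under all 17 alternatives and the DM call under 16. Manf and Creld2, small secreted proteins released under ER stress, did not pass in either medium. Manf differed from CM by -0.60 ± 0.30 in DM and -0.35 ± 0.30 in DM+Met, and Creld2 by -0.28 ± 0.48 and -0.15 ± 0.48.

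Among the lectin chaperones and disulfide isomerases, 5 of 6 fell in DM and 3 of 6 in DM+Met. P4hb (chr11:120560298-120573253), the classical protein disulfide isomerase, was at 8.45 and 8.51 in CM, 6.99 and 6.65 in DM, then 6.59 and 6.48 in DM+Met. The gap to CM was wider than that within any pair. It fell 3.16-fold in DM (-1.66 ± 0.18, adjusted p = 4.86e-04) and 3.85-fold in DM+Met (-1.94 ± 0.18, adjusted p = 1.69e-04), and both calls held under all 17 alternatives.

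Pdia6, an isomerase that acts on IRE1 as well as on folding clients, was at 7.83 and 7.62 in CM, 6.48 and 5.80 in DM, with 6.36 and 6.63 in DM+Met. It fell by 1.59 ± 0.24 in DM (adjusted p = 0.00270) and by 1.23 ± 0.24 in DM+Met (adjusted p = 0.00838). The DM call was lost without CM 1, and the DM+Met call without CM 1, CM 2, DM+Met 1 or DM+Met 2, with differences from -1.93 to -1.25 and from -1.36 to -1.10. Canx, the membrane-bound lectin calnexin, was at 8.37 and 8.29 in CM, 7.04 and 7.57 in DM, then 7.54 and 7.62 in DM+Met. It fell 2.04-fold in DM (adjusted p = 0.00672) and 1.69-fold in DM+Met (adjusted p = 0.0262), and both calls were lost without CM 1 or CM 2, the second also without either DM+Met library, where the differences ranged from -1.30 to -0.76 and from -0.79 to -0.71.

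Calr, its soluble counterpart calreticulin, was at 8.79 and 8.65 in CM, 8.26 and 8.004 in DM, with 8.37 and 8.44 in DM+Met. DM was lowest, and DM+Met lay between the other media. Calr fell in DM (-0.59 ± 0.15, adjusted p = 0.0266) and differed by -0.31 ± 0.15 in DM+Met (adjusted p = 0.198). Pdia4 showed the same order, with 6.96 and 6.99 in CM, 6.33 and 6.28 in DM, then 6.47 and 6.84 in DM+Met. It fell 1.59-fold in DM (adjusted p = 0.0414). The call of Calr was lost in 5 of the 6 fits without 1 library, all but that without DM 1, and that of Pdia4 in all 6, with differences from -0.72 to -0.46 and from -0.69 to -0.64. Pdia3, which works with both lectins on glycoproteins, stood apart from the group at 7.44 and 7.29 in CM, 8.01 and 7.26 in DM, with 7.87 and 7.82 in DM+Met. It differed from CM by 0.27 ± 0.23 in DM and 0.47 ± 0.23 in DM+Met (adjusted p = 0.460 and 0.193).

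ERAD, which retrieves misfolded proteins to the cytosol for the proteasome, had 9 genes that added up to 376 and 380 CPM in CM, 390 and 363 in DM, then 453 and 415 in DM+Met. This sum turned on Herpud1. Without it, in an alternative chosen after seeing the data, the other 8 genes summed to 327 and 325 CPM in CM, 260 and 282 in DM, then 325 and 309 in DM+Met, so that DM lay below CM and DM+Met overlapped with it. Herpud1 (chr8:94386429-94395371), a membrane scaffold of the ERAD ubiquitin ligase, was at 5.65 and 5.81 in CM, 7.03 and 6.35 in DM, with 7.01 and 6.75 in DM+Met. All 4 dialyzed libraries were above CM. It rose 1.95-fold in DM (0.96 ± 0.25, adjusted p = 0.0271) and 2.22-fold in DM+Met (1.15 ± 0.25, adjusted p = 0.0130). The DM call was kept in 1 of the 6 fits without a library, the one without DM 2, and the DM+Met call was lost without CM 1, CM 2, DM+Met 1 or DM+Met 2. The differences in those fits lay from 0.62 to 1.30 and from 1.02 to 1.28.

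Sel1l, the partner that stabilizes the ligase, was at 5.42 and 5.66 in CM, 6.04 and 6.34 in DM, then 6.15 and 6.45 in DM+Met. It too was above CM in all 4 libraries, by 0.65 ± 0.23 (adjusted p = 0.0786) and 0.76 ± 0.23 (adjusted p = 0.0505), short of the threshold in both. It passed in both media when values were scaled to library totals without Rn45s. Syvn1, the ligase HRD1 itself, was at 5.41 and 4.46 in CM, 3.86 and 4.64 in DM, with 4.87 and 5.10 in DM+Met, with overlapping values and differences of -0.68 ± 0.40 and 0.05 ± 0.40.

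The mannosidase-like EDEM proteins, which mark glycoproteins for ERAD, held 1 call in DM and none in DM+Met among 3 genes. Edem1 was at 6.55 and 6.17 in CM, 5.28 and 5.31 in DM, then 5.94 and 5.69 in DM+Met. It fell 2.09-fold in DM (-1.07 ± 0.23, adjusted p = 0.0141), a call kept in 1 of the 6 fits without a library (that without CM 2, differences -1.26 to -0.87 in all), and in DM+Met it differed by -0.55 ± 0.23 (adjusted p = 0.146). Edem2 was also below CM in all 4 libraries, at -0.77 ± 0.30 and -0.72 ± 0.30, without passing. Edem3 rested on a single library, with 15 reads in DM 1 against 173 in DM 2 and 127 to 225 in the other 4, and its difference of -1.38 ± 0.73 in DM became -0.03 without DM 1. The derlins, channel components of ERAD, ranged from -0.21 (Derl1) to 0.37 (Derl3) in DM and from -0.11 (Derl1) to 1.02 (Derl3) in DM+Met, none of them called. Derl3 gave 0 and 6 reads in CM, 9 and 6 in DM, with 16 and 25 in DM+Met. Its read ratio to CM was 1.96 in DM (0.72 to 6.17) and 4.75 in DM+Met (2.01 to 13.7). These intervals cover counting error only and not the spread between libraries. By limma its adjusted p was 0.703 in DM and 0.270 in DM+Met.

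**Figure D3:**
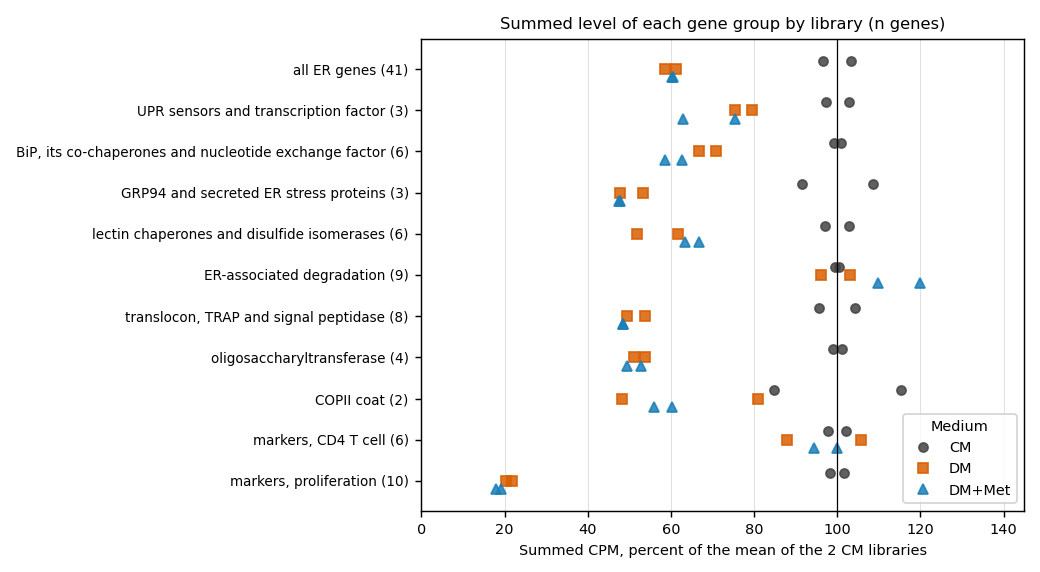
Summed CPM of each role group of the 41 ER genes, and of CD4 T cell and proliferation markers, in each library as percent of the mean of the 2 CM libraries (one marker per library). The ERAD genes, Herpud1 included, lie at 95.98% to 119.9% in the dialyzed libraries, the translocon, TRAP and signal peptidase group at 48.5% to 53.9%, and the proliferation markers at 17.9% to 21.9%.

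Of the 8 genes of the translocon, TRAP complex and signal peptidase, which form the entry gate of the ER, 4 fell in DM and 5 in DM+Met. Sec61g (chr11:16501638-16508484), the gamma subunit of the SEC61 channel, was at 8.37 and 8.46 in CM, 6.51 and 6.38 in DM, then 6.23 and 5.96 in DM+Met. The 3 media did not overlap. It fell 3.92-fold in DM (-1.97 ± 0.18, adjusted p = 2.28e-04) and further in DM+Met (-2.32 ± 0.18, adjusted p = 7.59e-05), the greatest fall among the 41 genes in each comparison, and it passed under all 17 alternatives in both.

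Sec61b, the beta subunit, was at 7.18 and 7.41 in CM, 5.79 and 6.01 in DM, with 5.76 and 6.03 in DM+Met. DM+Met differed from DM by 0.00 ± 0.21, and Sec61b fell 2.63-fold against CM in both (adjusted p = 0.00245 and 0.00198), the second call being lost without DM+Met 1, with differences from -1.53 to -1.26. Sec61a1, the pore subunit, was at 7.25 and 7.24 in CM, 6.48 and 6.80 in DM, then 6.29 and 6.14 in DM+Met. It fell 2.04-fold in DM+Met (-1.03 ± 0.19, adjusted p = 0.00609) and missed the threshold in DM (-0.60 ± 0.19, adjusted p = 0.0551). Without CM 1, CM 2, DM+Met 1 or DM+Met 2 its DM+Met call was lost, with differences from -1.10 to -0.95. Sec63, which recruits BiP to the channel, overlapped with CM in DM at 6.44 and 6.93 against 6.59 and 6.59, a difference of 0.10 ± 0.21.

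The translocon-associated protein (TRAP) complex assists chains that enter inefficiently. Its gamma subunit Ssr3 was at 7.88 and 7.44 in CM, 6.16 and 6.08 in DM, with 6.57 and 6.35 in DM+Met. It fell 2.90-fold in DM (-1.54 ± 0.20, adjusted p = 0.00151), under all 17 alternatives, and 2.30-fold in DM+Met (-1.20 ± 0.20, adjusted p = 0.00424), a call lost without CM 1 or either DM+Met library (differences from -1.42 to -0.98). The alpha subunit Ssr1 was lower than CM in all 4 libraries without passing, by 0.48 in each medium.

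Of the signal peptidase, which removes the targeting peptide, Spcs3 was at 7.17 and 6.28 in CM, 5.47 and 5.59 in DM, then 4.67 and 4.81 in DM+Met. The CM pair was 0.89 apart, and DM+Met lay below DM. Spcs3 fell 2.28-fold in DM (-1.19 ± 0.30, adjusted p = 0.0245) and 3.95-fold in DM+Met (-1.98 ± 0.30, adjusted p = 0.00215). The DM call was kept without CM 2 and lost without any other library, and the DM+Met call was lost without either DM+Met library, with differences from -1.64 to -0.75 and from -2.43 to -1.54. Spcs2, another subunit, was not called, at -0.21 ± 0.16 and 0.00 ± 0.16.

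The oligosaccharyltransferase, which attaches N-glycans to chains as they enter, had 2 of its 4 listed genes called lower in DM and 3 in DM+Met. Its core subunit Rpn1 was at 6.93 and 6.87 in CM, 5.18 and 5.45 in DM, with 5.67 and 5.70 in DM+Met. It fell 2.99-fold in DM (-1.58 ± 0.21, adjusted p = 0.00158), under all 17 alternatives, and 2.32-fold in DM+Met (-1.21 ± 0.21, adjusted p = 0.00472), where the call was lost without CM 1 or either DM+Met library (differences from -1.24 to -1.18). Rpn2 fell 2.04-fold and 1.84-fold, from 6.95 and 6.89 in CM to 5.88 and 5.92 in DM, then 6.02 and 6.06 in DM+Met (adjusted p = 0.00638 and 0.0121). Its DM call was lost without CM 1, and its DM+Met call without either CM or either DM+Met library, with differences from -1.06 to -0.999 and from -0.91 to -0.85.

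Ostc and Ddost, 2 further subunits, differed in order. Ostc was at 6.59 and 6.40 in CM, 6.28 and 6.06 in DM, with 5.51 and 5.14 in DM+Met, a stepwise order with DM+Met lowest. It fell 2.25-fold in DM+Met (-1.17 ± 0.23, adjusted p = 0.00798) but not past the threshold in DM (-0.33 ± 0.23). The DM+Met call was lost without CM 1 or either DM+Met library, with differences from -1.36 to -0.98. Between DM+Met and DM its difference of -0.84 ± 0.23 had an adjusted p of 0.302. Ddost overlapped between CM and DM+Met, at -0.68 ± 0.31 in DM and -0.21 ± 0.31 in DM+Met.

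The COPII coat carries cargo out of the ER. Its inner-coat gene Sec23b was at 5.24 and 4.63 in CM and 4.01 to 4.45 in the 4 dialyzed libraries, below CM in all and called in neither comparison (-0.71 ± 0.36 and -0.62 ± 0.36). Sec24d, a cargo adaptor, gave 32 and 46 reads in CM, 74 and 21 in DM, then 27 and 7 in DM+Met. Its pairs were more than 1 log2 unit apart in both dialyzed media. Sec24d differed from CM by -0.20 ± 0.70 in DM, where libraries overlapped, and by -1.31 ± 0.70 in DM+Met, where both libraries lay below CM. Neither difference was called.

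**Figure D4:**
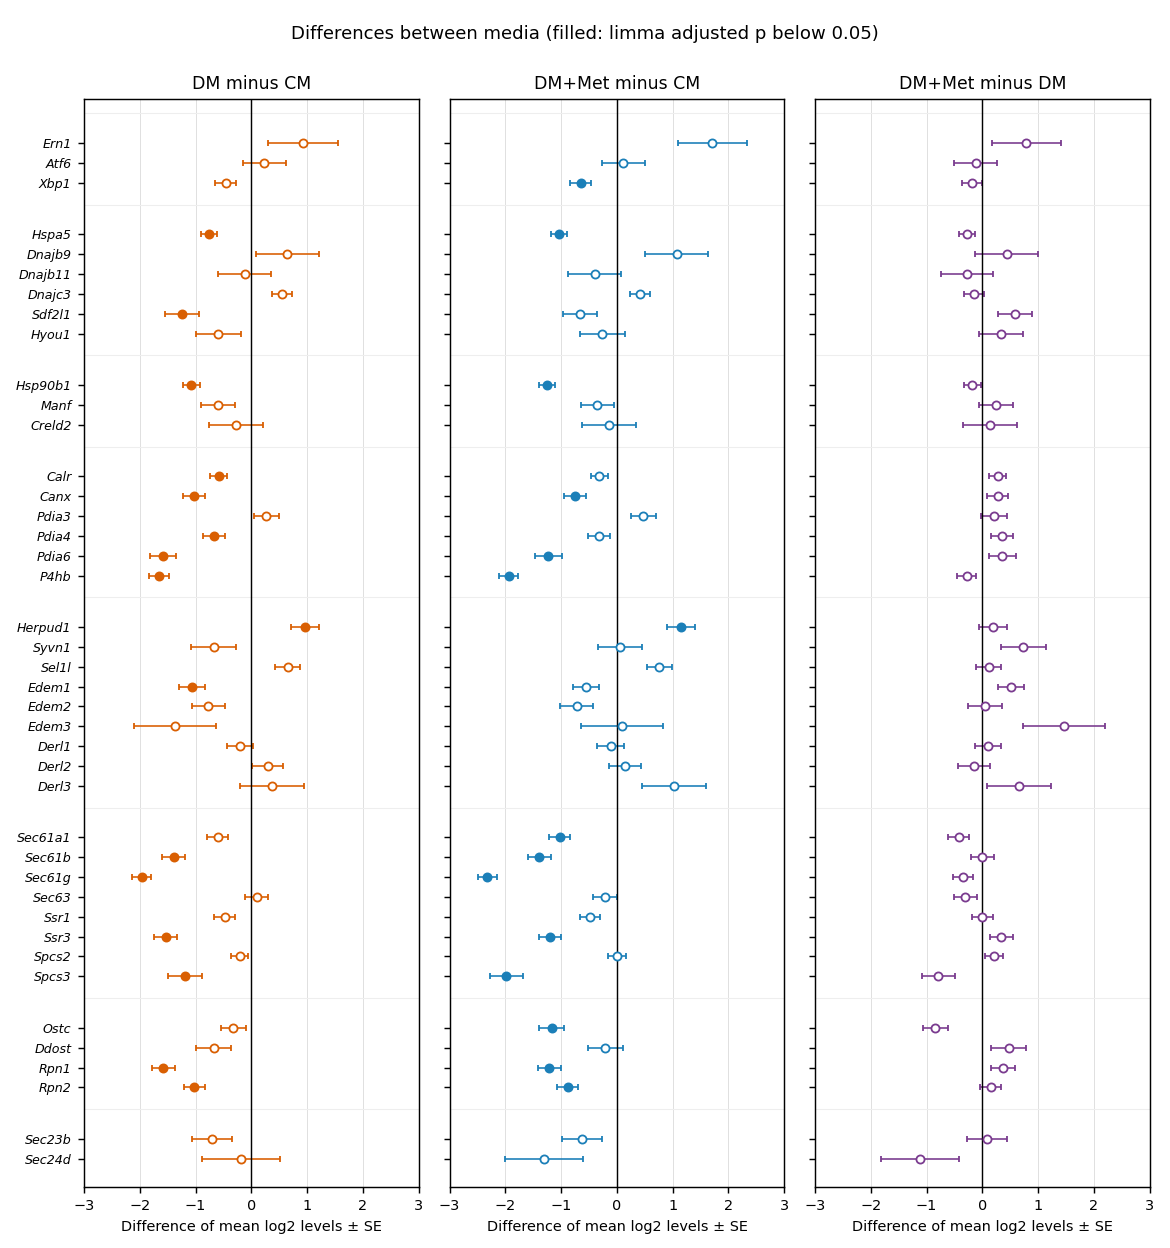
Difference of mean log2 levels (horizontal axis) with its standard error for each of the 41 ER genes, for DM minus CM, DM+Met minus CM and DM+Met minus DM; filled circles mark limma adjusted p below 0.05. The first 2 panels share the CM libraries, and hold 16 and 15 filled circles, against 0 in the third.

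Genes with an ERSE in the promoter, whose sequences stand above, were not all lower. Of the 9, Hspa5, Hsp90b1, Calr, Canx and Pdia6 fell in DM and none rose, with a median difference of -0.68 and a range from -1.59 (Pdia6) to 0.56 (Dnajc3). Among the 23 genes whose promoters held neither ERSE nor ERSE-II, 9 fell in DM, with a median of -0.68 and a range from -1.97 (Sec61g) to 0.92 (Ern1). In DM+Met, 4 of the 9 and 7 of the 23 fell. Of all tested rows, 9.07% were called lower in DM and 8.36% in DM+Met. P4hb, Rpn1, Ssr3 and Sec61g, with falls of about 1.5 log2 units or more in DM, carried no full match in these windows. Both ERSE-II genes differed from each other, with Herpud1 higher and Dnajb11 at -0.12 ± 0.47 in DM.

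**Figure D5:**
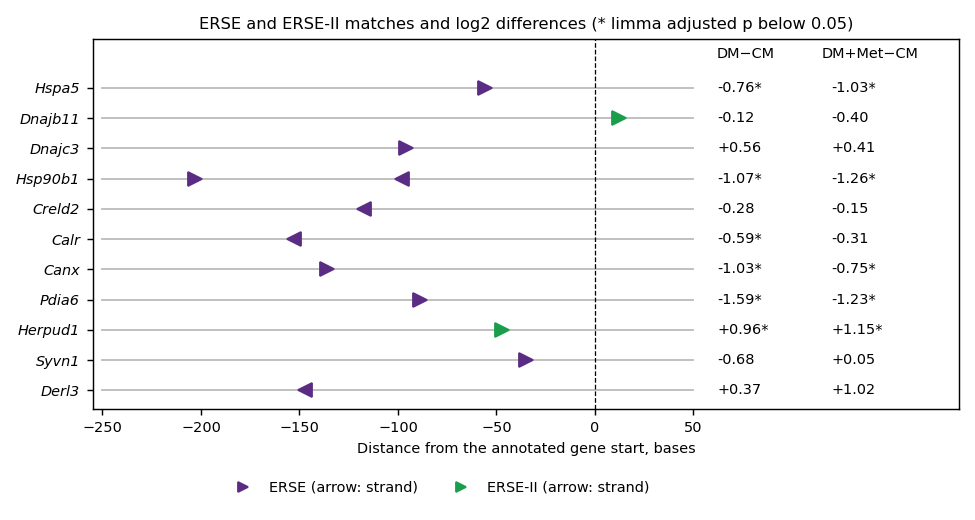
Position of each ERSE and ERSE-II match relative to the annotated start (horizontal axis, bases; arrows give the strand) for the 11 ER genes that hold one, with the log2 difference of each gene in DM and DM+Met against CM at the right. All matches but that of Dnajb11 lie before the start, and Herpud1 is the one gene of the 11 that rose.

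The rest of the pathway was followed in 85 further genes. In DM, 5 of the 85 fell and none rose, with a median difference of -0.22, and in DM+Met 7 fell and 2 rose, with a median of -0.24. These are 5.88% and 8.24% called lower, against the 9.07% and 8.36% of all tested rows given above, so the counts of calls do not set these genes apart. Both DM libraries lay below both CM libraries for 44.7% of the 85 and above them for 11.8%, against 26.2% and 27.9% of all rows. For the DM+Met libraries these shares were 42.4% and 18.8%, against 28.7% and 32.2% of all rows. None of the 85 was called between DM+Met and DM by limma, where 10 had an unadjusted p below 0.05, against 1238 of all 12770 tested rows. In the PERK arm, differences from CM were above 0 for 4 of 10 genes in DM and for 6 in DM+Met. Their medians were -0.16 and 0.34. None of the 10 rose, and 1 fell, in both media. This was Atf4, the transcription factor made when PERK or the amino acid sensor GCN2 slows translation, at 8.84 and 9.22 in CM, 8.03 and 8.20 in DM, with 8.13 and 8.05 in DM+Met (-0.92 ± 0.17 in DM, adjusted p = 0.00593, and -0.94 ± 0.17 in DM+Met, adjusted p = 0.00499). None of the 7 site proteases and ATF6-related factors passed, the widest differences in DM being -0.84 for Atf6b and 0.47 for Creb3.

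Among 15 redox and folding enzymes, Ero1l, the oxidase that recharges P4hb, fell further than any of the 41 genes. It was at 9.06 and 9.001 in CM, 6.61 and 6.98 in DM, then 5.68 and 5.89 in DM+Met. The fall was 4.70-fold in DM (-2.23 ± 0.18, adjusted p = 1.39e-04) and 9.45-fold in DM+Met (-3.24 ± 0.18, adjusted p = 1.74e-05), and the step from DM to DM+Met did not pass (-1.01 ± 0.18, adjusted p = 0.158). Erp44, which retains Ero1l in the ER, fell in DM+Met (-0.91 ± 0.25, adjusted p = 0.0377) and did not pass in DM (-0.57 ± 0.25).

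In the other lists the calls were few. Of 14 ERAD genes, Vcp, the ATPase that pulls clients out of the membrane, fell in DM (-0.63 ± 0.15, adjusted p = 0.0202) and differed by -0.06 ± 0.15 in DM+Met, while Faf2, which recruits it, rose in DM+Met (0.89 ± 0.23, adjusted p = 0.0266). Of 15 targeting and translocation genes, Srp72, a subunit of the signal recognition particle, fell 2.54-fold in DM and 2.35-fold in DM+Met (adjusted p = 0.00525 and 0.00746), and Ssr4 and Sec11a fell in DM+Met. Of 7 oligosaccharyltransferase genes, Krtcap2 fell in DM (-0.64 ± 0.16, adjusted p = 0.0260) and Tmem258 in DM+Met (-0.95 ± 0.19, adjusted p = 0.0105). The 6 glycoprotein quality control genes held 1 call, Mogs, the glucosidase that trims the first glucose, which rose in DM+Met (1.18 ± 0.26, adjusted p = 0.0147), while Lman1 and Prkcsh had the widest differences in DM (-0.78 and -0.76). None of the 11 COPII genes passed, with Tfg at -1.08 and Sar1b at -0.91 in DM.

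Proliferation genes and markers of other cells moved in the same samples. Of 10 proliferation genes, 9 fell in DM and 8 in DM+Met, with median differences of -2.43 and -2.89. Of the 8 tested B and plasma cell markers, Mzb1 and Pou2af1 fell in both media. Mzb1, an ER chaperone partner that B cells and plasma cells make in quantity, was at 6.32 and 6.18 in CM, 4.38 and 3.30 in DM, with 3.08 and 3.48 in DM+Met (-2.41 ± 0.41 in DM, adjusted p = 0.00448). The other 6 tested markers of that list were called in neither medium, and Ms4a1 among them was at 3.34 and 2.70 in CM and 3.97 to 4.21 in the dialyzed media. Of the CD8 T and NK cell markers, Cd8a and Nkg7 fell in both media, while Klrb1c, with 0 reads in both CM libraries, 17 and 22 in DM, then 45 and 34 in DM+Met, rose in DM+Met (adjusted p = 0.0294). Of the myeloid markers, Lyz2 rose in DM (2.13 ± 0.59, adjusted p = 0.0355). The part of other cells and of proliferation in the lower ER gene levels was not tested.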

How the data were processed

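CD4 T cells in 3 media were profiled with Lexogen QuantSeq 3′ libraries from 500 ng of total RNA. Per the labels, 2 files were deposited for each medium, and they were taken as 2 libraries. The authors aligned reads to mm10 and scaled counts by TMM and CPM, and the submitters' processing notes name Bowtie2 and bedtools. The strand setting and annotation are not given in the sources used here, so overlapping and antisense genes and near-identical copies are uncertain. The deposited values were log2(TMM-scaled CPM + 1) to 3 decimals. Values fell on equal steps, from which reads were recovered (99.8% to 100% whole within 0.1 read).

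Rows with at least 0.946 CPM (10 reads at the median scaled depth) in 2 libraries and 15 reads in all were tested, 12770 of 23282. One limma (version 3.58.1, R 4.3.3) model with an intensity trend was fitted to the log2 values of all 6 libraries, and p-values were adjusted by Benjamini-Hochberg over all tested rows, with 0.05 as threshold. Differences and folds were taken from log2(CPM + 1), which understates changes of low genes. A value ± another is a difference and its standard error from this fit, with 2 libraries per medium. "Rose" and "fell" are used for calls. Read ratios have exact conditional intervals.

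Values are given for every gene called, for Xbp1, Ern1, Atf6, Hspa5 and Hsp90b1, and for the extremes of each role group. From each further list come up to 4 called genes with the greatest change in DM, or 2 where none was called, and genes called in DM+Met were added after their values were seen. The 41 genes and all lists were chosen with earlier results of these data known. The level of 1 cell type marker is not reported here. Motifs were searched on both strands of RefSeq promoters.

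Alternatives were library totals with or without Rn45s, no filter or a stricter one, limma-voom on recovered reads, fitting 2 media only, no trend, a robust prior, pseudocounts of 0.1 and 5 CPM, a block on file number, and leaving out each library, where the lone library is assumed to vary like the others. File numbers are not in the labels, and deviations of same-numbered libraries correlated at -0.03 to 0.00, so they were not taken as pairs.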

Additional observations from a re-analysis of the deposited data

How the results depend on the processing

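No called gene among the 41 changed sign under any of the 17 alternatives. In DM against CM the 16 calls became 10 when 2 media alone were fitted and 7 without the intensity trend, and 6 to 13 when 1 library was left out. In DM+Met against CM the 15 calls became 6 without the trend and 4 to 14 with a library left out. Fitting fewer samples leaves fewer residual degrees of freedom, and the cause of the change without the trend was not tested. DM+Met against DM gave 0 calls under every alternative. Calls that held under all 17 were those of P4hb, Rpn1, Sec61b, Sec61g and Ssr3 in DM, and of Hsp90b1, P4hb and Sec61g in DM+Met. The replicate block on file number left 15, 14 and 0 calls in DM, in DM+Met and between them.

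Of the genes not called, 9 of 25 changed sign under at least 1 alternative in DM, 11 of 26 in DM+Met, and 21 of 41 between DM+Met and DM. Those below are among the genes reported in full. Atf6 in DM lay between -0.04 and 0.50 when 1 library was left out, with -0.04 without DM 1. Between DM+Met and DM, scaling by library totals turned Atf6 to 0.23, Hsp90b1 to 0.18, Hspa5 to 0.088 and Xbp1 to 0.17, while it moved the median of all rows to 0.34, so relative to that shift all 4 stayed lower. With 1 library left out, Atf6 there ranged from -0.39 to 0.15, the latter without DM 1. Depth limited Ern1 and Derl3, which had under 50 reads in every library.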
